A study of Mus musculus with 24 samples.

Results

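The 7 genes of central nervous system myelin were followed through single-nucleus counts from mouse spinal cord: Mbp, Mog, Mag, Mobp, Cldn11, Cnp and Mal. They were taken by symbol, and all 7 of 7 were present among the 32962 genes of the deposited count matrix. The matrix held 18000 nuclear barcodes from 24 mice, 750 per mouse, with a deposited class for each barcode. Levels are given as CPM, the UMIs (unique molecular identifiers, which count each RNA molecule once) of a gene per 1000000 UMIs of the same mouse and class.

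The 3 groups of ICR/CD-1 mice, 8 to 11 weeks old and of both sexes, were compared. In the formalin group (10 mice) both hindpaws were injected in the plantar surface with 30 µl of 2% paraformaldehyde. In the rotarod group (5 mice) animals walked on a rod that accelerated from 0 to 40 rpm over 5 minutes. The control group (9 mice) had neither, and 3 of its mice carried titles ending in cx, a mark that the labels leave unexplained. The formalin and rotarod mice had first been habituated for 1 hour, the time to tissue collection was not given in the sources used here, and the labels name no transgene. The tissue label read brain, while the title and protocols named lumbar spinal cord.

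Myelin of the central nervous system is membrane that oligodendrocytes wrap round axons, and it is compacted by a few abundant proteins. Mature oligodendrocytes arise from precursors that divide and that do not yet make myelin. Myelin basic protein mRNA is carried out into the myelin sheath and translated there, so that it lies outside the cell body as well as in it. Schwann cells, which myelinate peripheral nerve, also use Mbp, Mag, Cnp and Mal, while Mog, Mobp and Cldn11 are regarded as central genes. Mbp encodes the protein that holds the cytoplasmic faces of the membrane together. Mobp encodes a small basic protein of the same compact layers. Cldn11 encodes the claudin of the radial tight junctions of myelin, and Mal encodes a proteolipid of membrane sorting. Mag and Mog encode immunoglobulin-type surface proteins, Mag at the face next to the axon and Mog on the outermost layer. Cnp encodes a phosphodiesterase that keeps cytoplasmic channels open within the sheath.

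In GENCODE M21 on GRCm38 the genes differed in span. Mbp covered 110.492 kb, against 12.656 kb for Mog (ENSMUSG00000076439.12, chr17:37010743-37023398, minus strand), 15.698 kb for Mag (chr7:30899176-30914873, minus strand) and 14.405 kb for Cldn11 (chr3:31149920-31164324, plus strand). Mobp covered 31.778 kb (chr9:120149707-120181484, plus strand), Cnp 16.826 kb (chr11:100574904-100591729, plus strand) and Mal 23.47 kb (chr2:127633226-127656695, minus strand). Cnp shared 8912 bases with Dnajc7 on the opposite strand, and Mobp shared 2447 bases with Gm38642 on its own strand. Dnajc7 had 5713 UMIs in all. Whether the counting used strand was not given in the sources used here, so Cnp counts may include reads of its neighbour.

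The bases before the starts of Mog, Mag and Cldn11 are shown because these genes had the closest levels over mice in oligodendrocytes, as described further on. Each run is the 250 bases before the RefSeq start on GRCm38.p6, read in the direction of the gene. Capitals mark letters that match a motif. The places are chr17:37023399-37023648 on the minus strand for Mog, chr7:30914864-30915113 on the minus strand for Mag and chr3:31149670-31149919 on the plus strand for Cldn11. The RefSeq starts of Mog and Cldn11 coincided with the GENCODE gene starts, and that of Mag lay 10 bases within the GENCODE gene.
Mog: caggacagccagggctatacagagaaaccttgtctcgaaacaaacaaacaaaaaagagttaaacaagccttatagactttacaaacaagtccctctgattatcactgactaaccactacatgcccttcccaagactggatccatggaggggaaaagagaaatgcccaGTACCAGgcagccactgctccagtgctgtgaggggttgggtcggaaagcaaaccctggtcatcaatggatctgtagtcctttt
Mag: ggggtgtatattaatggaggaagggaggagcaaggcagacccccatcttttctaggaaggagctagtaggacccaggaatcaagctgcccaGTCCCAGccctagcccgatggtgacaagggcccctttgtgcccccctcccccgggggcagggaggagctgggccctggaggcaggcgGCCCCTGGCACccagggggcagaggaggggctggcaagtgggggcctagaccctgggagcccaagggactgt
Cldn11: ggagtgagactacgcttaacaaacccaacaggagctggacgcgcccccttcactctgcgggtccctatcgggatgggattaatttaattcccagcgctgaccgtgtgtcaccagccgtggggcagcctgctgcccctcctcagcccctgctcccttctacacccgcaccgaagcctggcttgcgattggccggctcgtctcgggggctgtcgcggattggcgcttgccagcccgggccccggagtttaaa

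Windows were searched on both strands for CTGGNAC, a core sequence bound by the oligodendrocyte factor Myrf, for AACAAT and ACAATG, cores bound by Sox factors, for GCCNNNGGC, a palindrome bound by AP-2 factors, and for CAGCTG, an E-box. The letters ACAAT are common to both Sox cores. CTGGNAC was found in 3 of the 6 members with a RefSeq window (Mog, Mag and Cnp), and in 19.3% of all 32851 windows of 300 bases. In Mog it stood 83 bases before the start on the reverse strand (GTACCAG), and in Mag 68 bases before the start as CTGGCAC and 159 bases before it as GTCCCAG. GCCNNNGGC was found in Mag only, as GCCCCTGGC overlapping the CTGGCAC, and in 16.6% of all windows. None of the 6 held either of these Sox cores or the E-box. Other sequences that Sox factors may bind were not searched for, so a lack of Sox sites cannot be read from this. AACAAT stood in 10.7% of all windows, the other Sox core in 12.6% and the E-box in 16.3%. The Cldn11 window held none of the 5 motifs.

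The 2184 nuclei that the authors called oligodendrocytes carried all 7 genes. Over 23 mice with at least 10 such nuclei the genes together made up 7790 ± 911 CPM (SD), between 5786 and 9095. Mbp led with 3756 CPM, ahead of Mag with 1551, Mog with 1042, Mobp with 843, Cldn11 with 306, Mal with 205 and Cnp with 86.5. These counts are not scaled to gene length. Per kilobase of gene span the order was different, with Mag at 98.8 and Mog at 82.3 CPM per kilobase, Mbp at 34.0, Mobp at 26.5, Cldn11 at 21.2, Mal at 8.73 and Cnp at 5.14.

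At least 1 UMI of the 7 genes was found in 99.1% of oligodendrocyte nuclei, and the median nucleus showed 3 of the 7. Mbp was seen in 91.2%, Mag in 77.1%, Mog in 64.9%, Mobp in 54.5%, Cldn11 in 29.8%, Mal in 21.3% and Cnp in 9.84% of them. All 7 genes were seen together in 22 nuclei and none in 20. A nucleus held 1092 UMIs at the median, and the highest Mbp count in 1 nucleus was 48 UMIs. Among neurons, which are not known to make myelin, 64.0% of nuclei had at least 1 UMI of the 7, with a median of 2214 UMIs per nucleus. After thinning every nucleus to 500 UMIs these shares were 96.4% in oligodendrocytes and 26.5% in neurons. For Mag alone the thinned shares were 52.6% in oligodendrocytes and 2.50% in neurons, and for Mog 39.7% and 1.94%. Intervals and shares of this kind cover counting error only. Where the UMIs seen in neurons were made was not tested.

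The oligodendrocyte class was checked against 10 other oligodendrocyte genes, which summed to 8484 ± 963, 8210 ± 904 and 8335 ± 1063 CPM in the formalin, rotarod and control mice. Neuronal marker genes summed to 7421, 6033 and 8210 in the same nuclei of the 3 groups. Nuclei called precursors carried 8610 CPM of precursor markers and 16352 of neuronal markers. The microglial class held 2366 CPM of microglial markers, against 9117 of neuronal ones and 2060 of the 10 other oligodendrocyte genes. The meningeal and Schwann class held 5594 of Schwann markers. The authors defined their classes from these counts, so differences between classes are given as a description.

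Away from oligodendrocytes the 7 genes were detected in every class and in every neuron family. Barcodes with no label held 7189 ± 2855 CPM (17 mice) and those marked discarded 3304 ± 1281 (24 mice), at medians of 538 and 612.5 UMIs per barcode. Microglia held 2855 ± 1889 (18 mice), the meningeal and Schwann class 2173 ± 510 (24 mice) and precursors 1743 ± 1278 (19 mice). Astrocytes held 1203 ± 532 (23 mice), the endothelial and vascular class 1042 ± 379 (23 mice) and all neurons 566 ± 252 (24 mice). Neurons therefore stood at 7.26% of the oligodendrocyte level and precursors at 22.4%. With neurons divided into 8 families and a remainder, the 17 sets formed 16 neighbouring pairs in this order. Only the step between unlabelled and discarded barcodes was wider than the larger SD of its pair, and 15 steps lay within it.

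**Figure D1:**
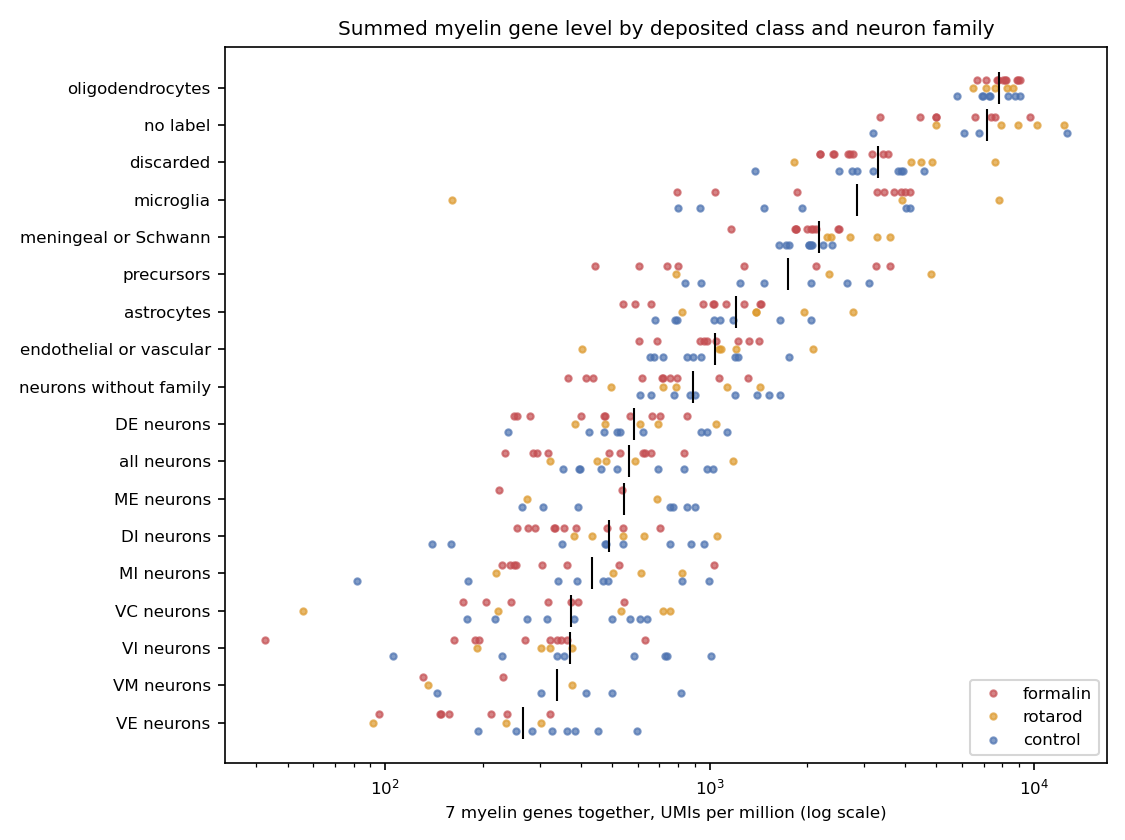
Summed level of the 7 myelin genes in CPM (log axis) in each deposited class and neuron family. A point is 1 mouse, coloured by group, and the bar is the mean over all mice; 3 mice at 0 (1 in precursors, 1 in MI neurons, 1 in VC neurons) are off the axis. Oligodendrocyte mice lie between 5786 and 9095, and the neuron families lie lowest.

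The neuron families are known by the letters of their deposited names. Nuclei of the DE family had 584 ± 256 CPM over 24 mice and those of the VE family 267 ± 130 over 18 mice. Neurons that the authors placed in no family had 890 ± 367 over 24 mice. Of the 43 neuron populations, with UMIs pooled over mice, VI-2 held the most, 995 CPM over 219 nuclei of 10 mice, and VI-5 the least, 236 over 123 nuclei of 21 mice. Control replicate 9 gave 117 of the VI-2 nuclei, and without that mouse VI-2 held 818 CPM, below DE-16 at 883. The nuclei of VI-2 had a median of 2184 UMIs and those of VI-5 a median of 10816. The part of UMIs per nucleus or of single mice in this order was not tested.

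Single members departed from the summed order. Mal, which epithelial and Schwann cells also use, stood at 239 CPM in the endothelial and vascular class, 117% of its oligodendrocyte level, and at 84.2% of that level in the meningeal and Schwann class. Cnp stood at 86.6% of its oligodendrocyte level in the meningeal and Schwann class and at 21.1% in neurons. Mog was the member lowest in the meningeal and Schwann class, at 4.95% of its oligodendrocyte level. In neurons Mag stood at 2.87% and Mog at 3.05%.

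The 7 genes stood in different proportions inside and outside oligodendrocytes. Mbp made up 47.7% of their UMIs in oligodendrocytes (10796 of 22649, exact 95% binomial interval 47.0 to 48.3). In neurons it made up 71.1% (9215 of 12955, interval 70.3 to 71.9), in precursors 70.5%, in the meningeal and Schwann class 73.8%, in astrocytes 70.4% and in discarded barcodes 69.4%. Barcodes with no label had the highest share, 90.7% (5074 of 5597). Mag gave 19.8% of the UMIs in oligodendrocytes and 7.48% in neurons, and Mog gave 13.7% and 5.32%. The 8 neuron families lay between 66.1% (VM) and 78.3% (ME) for Mbp. In each of these sets the Mbp share was above that of oligodendrocytes.

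**Figure D2:**
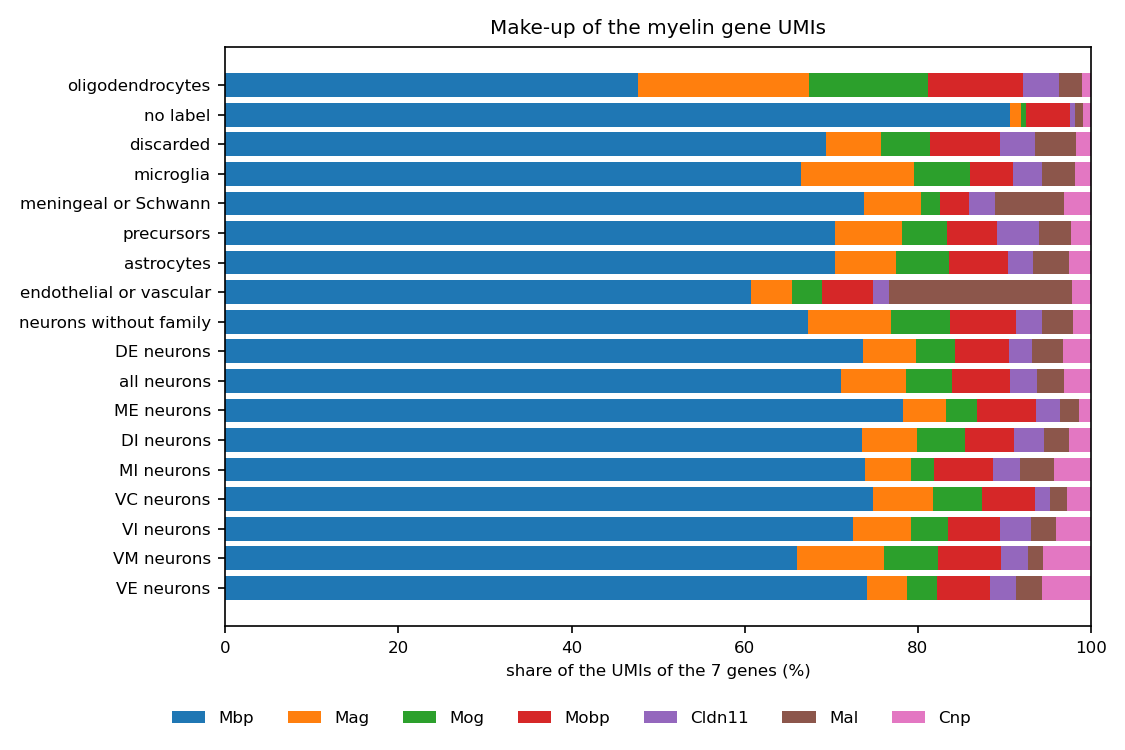
Share of the UMIs of the 7 genes that each gene contributed (%), with classes and neuron families down the page and all mice pooled. Mbp fills 47.7% of the bar for oligodendrocytes and 71.1% of the bar for all neurons; Mal fills 21.1% of the endothelial and vascular bar.

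Between the stimulated groups, Mog was higher in oligodendrocytes of formalin mice than of rotarod mice. The 10 formalin mice had 1092 CPM at the lowest, 1212 at the median and 1451 at the highest. The 5 rotarod mice had 508, 844, 447, 798 and 748. Rotarod replicates 1 and 3 held 15 and 27 Mog UMIs. Control mice reached into the range of both groups, with 530 at the lowest, 1035 at the median and 1395 at the highest. Control replicates 7 and 8, both with cx titles, held 530 and 788. The other control mice in this class lay at 864 or above, higher than every rotarod mouse. The formalin level was 1.73-fold the rotarod level (log2 fold change 0.79, SE 0.17, adjusted p = 0.0204, edgeR quasi-likelihood test with Benjamini-Hochberg adjustment over 3158 genes). Of the 7 members 1 was called in this contrast, Mog, and of all genes tested 11 or 0.348%. The call did not hold without rotarod replicate 1 (log2 0.71, edgeR adjusted p = 0.0512) or rotarod replicate 3 (log2 0.67, edgeR adjusted p = 0.171), nor with formalin replicates 1 to 5 summed with replicates 6 to 10, which resembled them pair by pair (log2 0.78, edgeR adjusted p = 0.123). After thinning to 500 UMIs, Mog was seen in 43.7% of formalin, 25% of rotarod and 40.6% of control oligodendrocyte nuclei.

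**Figure D3:**
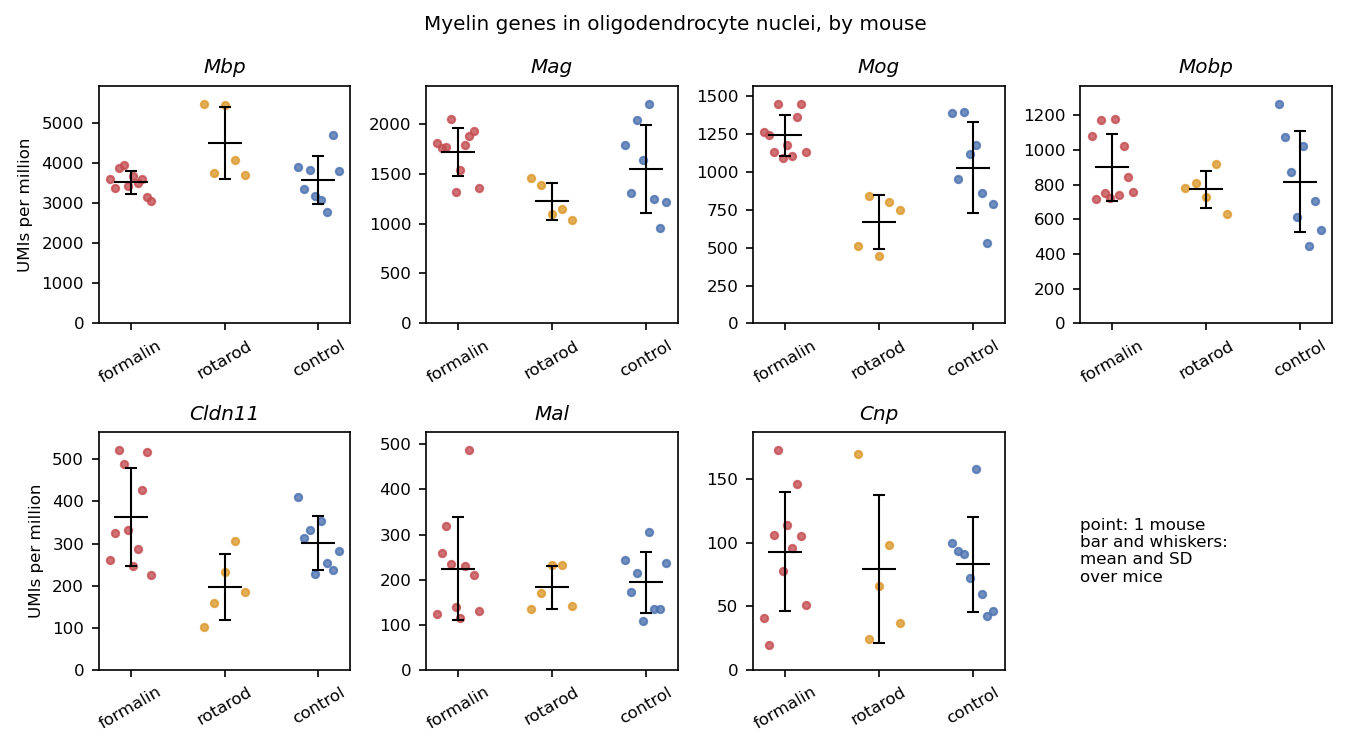
Level of each myelin gene in oligodendrocyte nuclei (CPM) in formalin, rotarod and control mice. A point is 1 mouse, and the bar with whiskers is the mean with SD over 10, 5 and 8 mice. For Mog the formalin mice lie from 1092 upward and the rotarod mice at 844 or below.

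Mbp leaned the other way, with overlapping groups. Formalin mice had 3046, 3559 and 3954 CPM of Mbp at the lowest, median and highest. Rotarod mice had 5488, 3754, 5463, 4083 and 3704. Replicates 1 and 3 of the rotarod group stood apart at the top, and the other three lay within the range of the control mice (2785 at the lowest, 3585 at the median and 4707 at the highest). The log2 fold change of formalin over rotarod was -0.40 (SE 0.12) and did not pass (edgeR adjusted p = 0.115).

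Cldn11 and Mag, like Mog, were on the higher side in formalin mice without passing the test. Cldn11 had 226, 329 and 522 CPM in formalin mice at the lowest, median and highest, and 102, 159, 232, 307 and 186 in the rotarod mice. Its log2 fold change was 0.73 (SE 0.22, edgeR adjusted p = 0.123). Mag had 1321, 1776 and 2044 in formalin mice, and 1457, 1382, 1093, 1148 and 1039 in rotarod mice. Its log2 fold change was 0.45 (SE 0.15, edgeR adjusted p = 0.133), and 8 of the 10 formalin mice lay above the highest rotarod mouse. Mobp (log2 0.14), Mal (log2 0.21) and Cnp (log2 0.39) had standard errors larger than their differences. Over the 7 members the median log2 fold change was 0.39 with 6 positive, against a median of 0.01 over all 3158 genes tested.

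None of the 7 members passed the test between formalin and control oligodendrocytes. Formalin mice averaged 3525 ± 284 CPM of Mbp and control mice 3582 ± 605 (SD, n = 10 and 8). Mog averaged 1240 ± 138 in formalin mice and 1027 ± 301 in control mice, and its log2 fold change was 0.25 (95% interval -0.02 to 0.51, edgeR adjusted p = 0.876). For Mbp the interval of the log2 fold change ran between -0.27 and 0.14. No gene of the 3158 tested was called in this contrast (0%), and 175 had an unadjusted p under 0.05 in edgeR.

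Between rotarod and control oligodendrocytes no member passed either. Mog averaged 669 ± 179 CPM in rotarod mice and 1027 ± 301 in control mice (SD, n = 5 and 8), and every rotarod mouse lay below the control median. Its log2 fold change was -0.54 (SE 0.17, unadjusted p = 0.00271, edgeR adjusted p = 0.380). Over the alternatives other than leave-outs this value ran between -0.83 and -0.54, and Mog was called in none of them. Mbp averaged 4499 ± 904 in rotarod mice, and every one of them lay above the control median (log2 0.33, SE 0.12, edgeR adjusted p = 0.451). The share of all genes tested with every rotarod mouse on 1 side of the control median is not given here. Of the 7 members, 6 had negative values with a median of -0.25, and 1 gene of all tested was called (0.0317%). The formalin and rotarod contrasts share their control mice, so their values are not independent of each other.

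Mitochondrial transcripts, a sign of cytoplasmic RNA in a nuclear preparation, made up 1.44 ± 0.68%, 2.63 ± 0.77% and 1.72 ± 0.92% of oligodendrocyte UMIs in formalin, rotarod and control mice. Gene span moved with the same contrast. Of genes tested in oligodendrocytes, those spanning under 20 kb had a median log2 fold change of 0.28 for formalin over rotarod, and those over 150 kb one of -0.04. Mog, Mag, Cldn11 and Cnp span under 20 kb. Mbp, the longest member at 110 kb, falls among genes of 50 to 150 kb, whose median was -0.03. The part of either measure in the Mog and Mbp values was not tested.

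Over the 23 mice the levels of single members in oligodendrocytes were related to different degrees. Mog and Mag had Pearson's r = 0.83 (Spearman's rho 0.88), Mog and Cldn11 r = 0.70, and Cldn11 and Mal r = 0.61. Mbp and Mog had r = -0.61 with rho = -0.33. All pairs come from the same libraries and share their totals, and the values are descriptions. The Mbp share of the 7 genes' UMIs in oligodendrocytes averaged 43.9 ± 2.75% in formalin mice, 58.6 ± 5.97% in rotarod mice and 47.9 ± 8.35% in control mice, and control replicate 7 had the highest control share, 64.3%.

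In neurons, which are not known to make myelin, 4 members had lower values in rotarod mice than in control mice without passing the test. Cldn11 had 0, 2.68, 3.12, 7.97 and 11.7 CPM in rotarod replicates 1 to 5, against 10.1, 20.5 and 33.6 in control mice at the lowest, median and highest. Its log2 fold change was -1.66 (SE 0.42, edgeR adjusted p = 0.125) on 43 rotarod and 245 control UMIs. The count of 0 in rotarod replicate 1 allows up to 7.71 CPM. Mag had 20.6, 12.0, 28.0, 27.5 and 28.8 in the rotarod mice, against 24.3, 54.3 and 93.3 in control mice (log2 -1.16, SE 0.32, edgeR adjusted p = 0.220). Mog had 12.9, 1.34, 9.35, 23.5 and 25.3 in the rotarod mice, against 13.0, 38.7 and 63.4 in control mice (log2 -1.10, SE 0.34, edgeR adjusted p = 0.292). For Mal the log2 fold change was -0.90 (edgeR adjusted p = 0.467). Every rotarod mouse lay below the control median for Mog, Mag, Cldn11, Mal and Cnp, while Mbp lay above it in 4 of 5 (log2 0.18). The share of all genes tested with every rotarod mouse below the control median is not given here. Lower values in rotarod neurons were not particular to these members. The 10 other oligodendrocyte genes summed to 403 ± 138, 290 ± 55.8 and 457 ± 118 CPM in neurons of formalin, rotarod and control mice. Schwann markers summed to 83.6 in rotarod and 126 in control neurons, and each other marker list also averaged lower in rotarod neurons. These sums were not tested.

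None of the 7 was called in neurons for rotarod against control mice, nor was any of the 9103 genes tested (0%), although 779 had an unadjusted p under 0.05 in edgeR. With no filter on low counts Cldn11, Mag and Mog were called by the same test, at edgeR adjusted p of 0.000213, 0.000213 and 0.00382, and 0.141% of 30598 genes were called. Between formalin and rotarod neurons, 0 of 7 members and 195 genes (2.14%) were called, and 5 members had an unadjusted p under 0.05 in edgeR, as 17.7% of the genes tested did. DESeq2 called 1 member (Cldn11) and 3.38% of 8055 genes. Cldn11 had a log2 fold change of 1.29 there (SE 0.44, edgeR adjusted p = 0.118) and Mbp one of -0.82 (SE 0.39, edgeR adjusted p = 0.276). Between formalin and control neurons 0 of 7 members and 0% of genes were called, with 6 of the 7 members negative and Mbp at -0.64 (edgeR adjusted p = 0.597). Genes under 20 kb had a median log2 fold change of -0.18 for rotarod over control in neurons and genes over 150 kb one of 0.10, and mitochondrial UMIs were 1.09% in rotarod and 0.825% in control neurons. The part of these in the members' values was not tested.

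**Figure D4:**
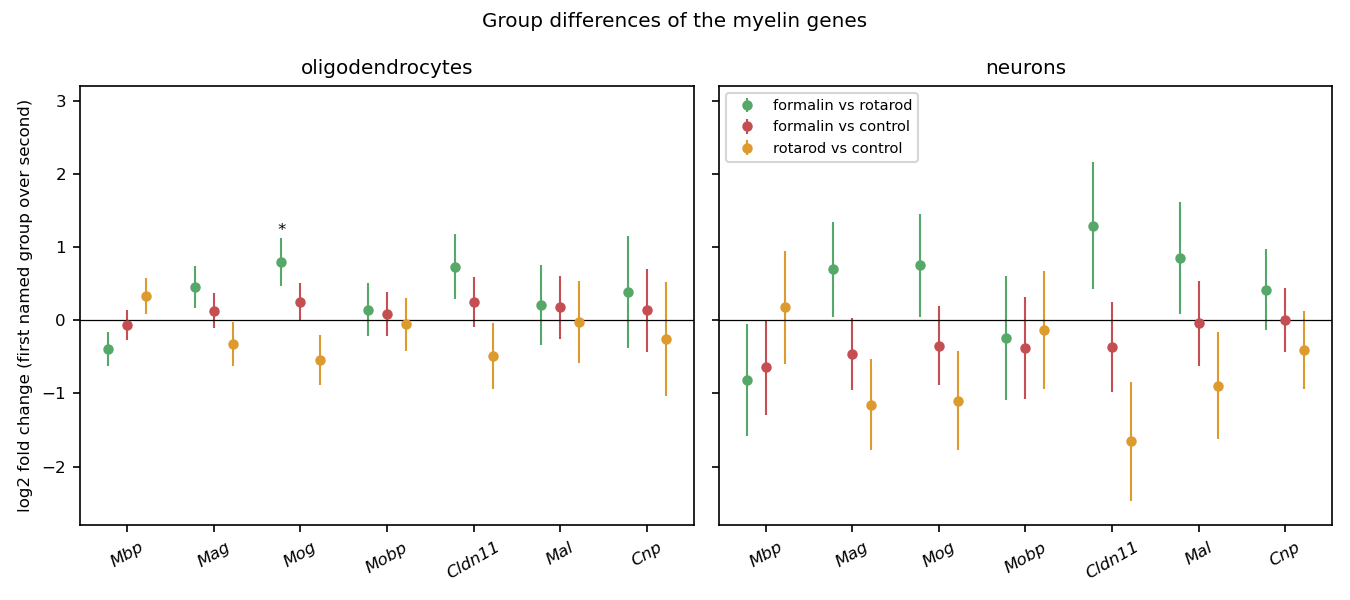
Log2 fold change of each myelin gene for formalin over rotarod, formalin over control and rotarod over control, in oligodendrocytes and in neurons. Points are edgeR estimates, lines their 95% intervals and the star an adjusted p under 0.05; Mog in oligodendrocytes at 0.79 for formalin over rotarod carries the only star, and Cldn11 in neurons at -1.66 for rotarod over control is the lowest point.

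Whether the group differences in neurons departed from those in oligodendrocytes was tested in 1 fit over both classes with the mouse as a block. No member and none of 6531 genes (0%) passed. For rotarod over control the difference of the differences, neurons minus oligodendrocytes, was -1.09 on the log2 scale for Cldn11 (edgeR adjusted p = 0.619), -0.79 for Mag, -0.72 for Mog and -0.84 for Mal. At an unadjusted p under 0.05 this contrast held 4 of the 7 members and 6.45% of all genes tested.

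Mbp was also high in rotarod mice outside oligodendrocytes. In the meningeal and Schwann class rotarod mice had 2751, 1895, 2790, 2049 and 1837 CPM. Formalin mice had 627, 1370 and 1685 at the lowest, median and highest, and control mice 1280, 1395 and 1694. The log2 fold change of formalin over rotarod was -0.81 (SE 0.18) and missed the threshold (edgeR adjusted p = 0.0502), in a contrast that called 0.0611% of 3273 genes. DESeq2 called it (adjusted p = 0.000278), with 0.743% of genes called. For rotarod over control it was 0.68 (SE 0.18, edgeR adjusted p = 0.192), in a contrast that called 0.0917%.

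In discarded barcodes Mbp was lower in formalin than in rotarod mice. Formalin mice had 1198, 1933 and 2301 CPM at the lowest, median and highest, and rotarod mice 6343, 3499, 3715, 3443 and 1269. Rotarod replicate 5, with 15 such barcodes, lay within the formalin range and the other four above it. The log2 fold change was -1.18 (SE 0.29, edgeR adjusted p = 0.0474), and 1 of 6 members tested was called against 1.39% of 2158 genes. The call was lost when single mice were left out in 18 of 24 cases, with edgeR adjusted p between 0.0169 and 0.138. It was also lost with the formalin replicates that resemble each other merged (edgeR adjusted p = 0.191), after thinning to 500 UMIs (0.0696) and with the replicate block (0.0622). Control mice had 968, 2177 and 3794, and rotarod against control mice gave a log2 fold change of 0.84 that was not called (edgeR adjusted p = 0.308, with 0.232% of genes called).

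**Figure D5:**
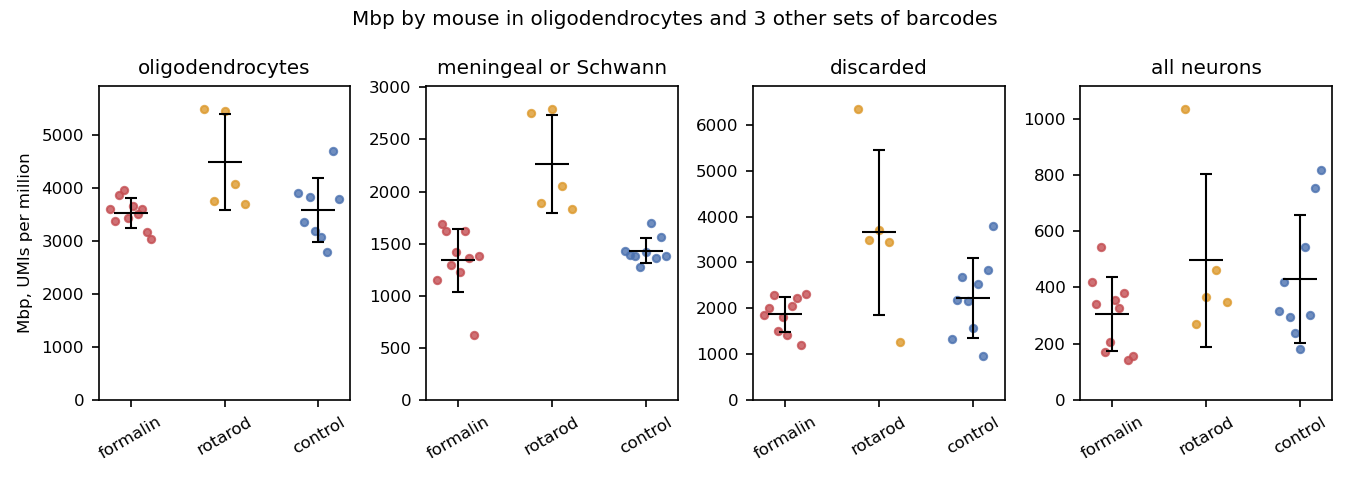
Mbp level in CPM in formalin, rotarod and control mice, in oligodendrocytes, the meningeal and Schwann class, discarded barcodes and all neurons. A point is 1 mouse and the bar with whiskers the mean with SD. In the meningeal and Schwann class the 5 rotarod mice lie from 1837 upward.

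Astrocytes averaged 667 ± 256, 1393 ± 736 and 770 ± 355 CPM of Mbp in formalin, rotarod and control mice (n = 10, 5 and 8). The log2 fold change of rotarod over control was 0.82 there (edgeR adjusted p = 0.564), in a contrast that called 0.388% of genes. For formalin over rotarod it was -1.06 (edgeR adjusted p = 0.188), in a contrast that called 1.33%. Precursors averaged 925 ± 814, 2332 ± 2014 and 1186 ± 551 over 9, 3 and 7 mice with at least 5 nuclei, on 81, 18 and 89 Mbp UMIs, and no difference between groups was detectable at that depth. In the endothelial and vascular class Mal averaged 267 ± 170, 214 ± 118 and 225 ± 69.3 in formalin, rotarod and control mice. In all 14 fits with Mbp, neuron families included, the estimate for formalin over rotarod was negative. These fits share their mice and libraries, and the families are part of the pooled neurons, so the signs are not independent of each other. The share of other genes with 1 sign in all fits is not given here.

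Mbp was called in none of the neuron families. Formalin values were below control values in all 6 families fitted, where 0 to 4 genes were called per contrast (at most 0.17%, with 0.0549% in MI for rotarod over control and 0.102% in VE for formalin over control). Rotarod values lay above control values in DE, DI, MI and VC (log2 between 0.05 and 0.39) and below them in VI (log2 -0.66) and VE (log2 -0.57). In VI nuclei Mbp averaged 168 ± 105 CPM in formalin mice, 239 in rotarod mice and 345 ± 249 in control mice (log2 -1.28 for formalin over control, edgeR adjusted p = 0.375). In VE nuclei it averaged 111 ± 63.0 in formalin mice, 164 in rotarod mice and 241 ± 113 in control mice (log2 -1.22 for formalin over control, edgeR adjusted p = 0.398). In DE nuclei formalin mice had 335 ± 137, rotarod mice 538 ± 265 and control mice 474 ± 255. Mag in DE nuclei was 15.3 CPM in rotarod mice and 52.9 in control mice, but its counts were too low for the fit, which called 0% of its genes.

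The Mbp share of the 7 genes' UMIs was on average highest in rotarod mice in each of the 6 sets examined, oligodendrocytes among them. In neurons it averaged 61.8% in formalin, 80.9% in rotarod and 66.1% in control mice. In the meningeal and Schwann class it averaged 66.6%, 79.3% and 72.5%, in discarded barcodes 67.6%, 78.1% and 68.2% and in astrocytes 65.6%, 81.1% and 65.5%, in the same order of groups. These shares are descriptions of the same libraries and were not tested.

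The neuronal Mbp level of a mouse was related to the Mbp level of its other barcodes. Over 24 mice, Pearson's r was 0.79 (permutation p = 0.00015) and Spearman's rho 0.59 (permutation p = 0.00294), the only relation tested. The relation planned for testing was that of the 7 genes summed, which is given below without a p-value. Mbp alone was added as an alternative to it. Rotarod replicate 1 was highest on both axes, with 1033 CPM in neurons and 4939 in its other barcodes. Without the 2 mice farthest from the median on the horizontal axis r was 0.42 (permutation p = 0.0551) and rho 0.47 (permutation p = 0.0283). Both were lower than over all mice, so part of the relation rests on those mice. With the same step in nuclei thinned to 500 UMIs r was 0.49 (permutation p = 0.0195) and rho 0.55 (permutation p = 0.00917), and with resembling formalin replicates merged r was 0.35 (permutation p = 0.170) and rho 0.49 (permutation p = 0.0468). Within the formalin mice r was 0.63 (permutation p = 0.0480) and rho 0.53 (permutation p = 0.123). These permutations counted each formalin replicate as a separate mouse, although the replicates resembled each other pair by pair. No value with merged pairs is given within that group. Within the control mice r was 0.74 (permutation p = 0.00415) and rho 0.63 (permutation p = 0.0757). For the 7 genes summed, r was 0.63 and rho 0.41 over all mice. Without the 2 farthest mice these fell to r = 0.24 and rho = 0.23, and with resembling formalin replicates also merged to r = 0.16 and rho = 0.15.

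Other genes of the same biology, taken from 4 lists, were not called in oligodendrocytes or neurons in any of the 3 contrasts. For formalin over rotarod in oligodendrocytes, 19 of 23 listed other myelin and oligodendrocyte proteins were tested, with 13 positive and a median log2 fold change of 0.10. Aspa, which cleaves N-acetylaspartate, averaged 949 ± 201 CPM in formalin mice and 901 ± 186 in rotarod mice. Enpp2, an enzyme that makes lysophosphatidic acid, averaged 918 in formalin mice and 927 in rotarod mice, and Bcas1, a gene of early myelination, 815 in formalin mice and 766 in rotarod mice. Of 19 genes of myelin lipid synthesis 9 were tested (median -0.10). Fa2h, which hydroxylates the fatty acids of myelin galactolipids, averaged 1149 ± 202 in formalin mice and 786 ± 270 in rotarod mice (log2 0.44, edgeR adjusted p = 0.223).

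Of 12 glial control factors 6 were tested (median -0.01). The zinc-finger factor St18 averaged 3931 CPM in formalin mice and 4079 in rotarod mice, and Zfp536 averaged 744 in formalin mice and 967 in rotarod mice (log2 -0.42, edgeR adjusted p = 0.126). Of 10 genes of axon contact and coupling 9 were tested (median 0.22), among them the paranodal adhesion gene Nfasc at 750 in formalin mice and 784 in rotarod mice. In neurons, Fa2h averaged 19.6 CPM in rotarod mice and 47.1 in control mice (edgeR adjusted p = 0.270). The lists had 14, 15, 3 and 7 genes tested there, in the order given here.

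Genes with a pattern over cell groups most like the 7 were sought by Pearson's r of log2 levels over 15 groups in control mice, among 3420 genes with at least 50 CPM in control oligodendrocytes. Prr5l came highest (r = 0.95, 4441 CPM in control oligodendrocytes), followed by Plcl1 (0.94), Aspa (0.94), Carns1 (0.94), Rnf220 (0.94), Phldb1 (0.94) and Arhgap23 (0.94). Each member was set against the other 6 in the same way. Mbp had r = 0.97, Mag 0.93, Cldn11 0.91, Mog 0.90, Mobp 0.87, Cnp 0.86 and Mal 0.75. Over the 24 mice in neurons, the genes most like the sum of the 7, among 3559 with at least 50 CPM there, included Bcas1 (r = 0.90), then Fth1 (0.85), Nefm (0.76), mt-Nd1 (0.76), mt-Nd2 (0.76) and mt-Cytb (0.76). The genes named include a neuronal filament and mitochondrial transcripts, all measured in the same libraries.

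Total UMIs per mouse ran between 549903 and 1707338 in formalin, 660286 and 3209063 in rotarod and 640279 and 3243587 in control mice, and oligodendrocyte UMIs between 52590 and 192304, 29517 and 162869, and 9549 and 256305. Control replicate 9 had 5 oligodendrocyte nuclei and was left out of that class. Libraries shared at most 4 barcodes in any of 276 pairs. Each replicate was counted as a separate mouse, and p-values measure the spread between replicates so counted. For the formalin replicates that resembled each other pair by pair, the labels do not settle whether a pair shares an animal. With those pairs merged, neither member called for formalin over rotarod stayed called. The edgeR adjusted p was then 0.123 for Mog in oligodendrocytes and 0.191 for Mbp in discarded barcodes.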

How the data were processed

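Nuclei of mouse spinal cord were profiled by droplet-based single-nucleus RNA sequencing. The authors deposited raw UMI counts per gene and barcode, whole numbers without normalization, and a class or neuron population for each barcode. The submitters' processing notes name the builds mm10 and GRCm38, and the aligner and strand setting were not given in the sources used here. Doublets were not called again.

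For each class, the counts of a mouse were added up where it had 10 or more nuclei (5 or more for precursors, microglia, neuron families and, for levels, unlabelled barcodes). Sums were tested in R 4.3.3 with edgeR 4.0.16 (TMM factors, filterByExpr, robust quasi-likelihood test), 1 fit over the 3 groups per class, Benjamini-Hochberg adjusted over all genes tested, with 0.05 as threshold. A separate edgeR fit of the same kind was run on simulated counts. It covered formalin against control in oligodendrocytes and neurons only, and its outcome is not given here. Levels are means over mice of CPM, UMIs per 1000000 UMIs of the class. Levels, correlations and figures used Python 3.11.15, numpy 2.4.6, scipy 1.17.1, pandas 2.3.3 and matplotlib 3.10.9, with 100000 permutations for the correlation test. Zero counts were read against 3 counts of the mouse's UMIs.

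The members, gene lists and motifs were chosen with earlier results of these data known. Named by rule were all 7 members, the 8 genes most like their sum by either measure, and from each list the called genes or else up to 3 with the highest oligodendrocyte level; 2 genes that the likeness rule names are not reported here. Gene symbols were matched to GENCODE M21, and promoter windows to RefSeq on GRCm38.p6, where 6 of 7 members had a window. Alternatives were DESeq2 1.42.0, other scalings, no filter, at least 20 nuclei, thinning to 500 UMIs, the 2 groups alone, controls without the cx mice, merged formalin replicates, a replicate block and leaving out each mouse. Formalin and rotarod mice share numbers 1 to 5, but same-numbered mice did not deviate together (mean r -0.03 in oligodendrocytes, 0 of 5 best matches), so the values in the text come from fits without a block unless they name it. Formalin replicates 1 to 5 did deviate with replicates 6 to 10 (mean r 0.16, 5 of 5 best matches). The labels do not say whether the replicates of such a pair share an animal.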

Additional observations from a re-analysis of the deposited data

Results flagged for a closer look

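In neurons 3 Mbp and Mobp values stood far from the rest of their group. Mbp in rotarod replicate 1 was 1033 CPM, against 464 in the next rotarod mouse. Mobp in the same mouse was 92.6, against 37.0 in the next. Mobp in control replicate 2 was 97.2, against 51.0 in the next control mouse. Of 42 groups of values examined in this way, chance alone sets about 1 in 20 apart.

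Barcodes with no label entered no comparison of groups. For some members the mean of a stimulated group lay above the highest control mouse. Mice with at least 5 such barcodes were used, 4 control, 8 formalin and 5 rotarod mice. Only the members and groups named next were flagged in this way, and Mbp, Cldn11 and Cnp were not among them. The share over other genes is not given here. Mog averaged 48.1 CPM in formalin mice and 65.9 in rotarod mice, against 43.5 in the highest control mouse. These rest on 4, 21 and 8 UMIs in formalin, rotarod and control mice. Mag averaged 227 in formalin mice, against 128 in the highest control mouse. Mobp averaged 705 in rotarod mice, against 451 in the highest control mouse. Mal averaged 144 in rotarod mice, against 128 in the highest control mouse. None of these differences was tested.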

How the results depend on the processing

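Counts of called members moved mostly with the low-count filter and the tool. With no filter, 3 of the tests outside oligodendrocytes and pooled neurons were called for formalin over control (Mbp in VE and VI, Mag in VI, with 0.0132% and 0.186% of genes called there). For rotarod over control 3 members were called in neurons (0.141% of genes) and 1 elsewhere (0.17%). For formalin over rotarod 0 were called in oligodendrocytes, 1 in neurons (0.778%) and 3 elsewhere (0.0777% to 0.383%). DESeq2 called 1 elsewhere for rotarod over control (0.0172% of genes). For formalin over rotarod it called 2 in oligodendrocytes (Mog and Mbp, with 3.85% of genes), 1 in neurons (Cldn11, 3.38%) and 2 elsewhere (Mbp in discarded barcodes, 1.2%, and in the meningeal and Schwann class, 0.743%). Merging formalin replicates left 0 in oligodendrocytes and 0 elsewhere, and thinning left 0 elsewhere. With the replicate block 1 member was called in oligodendrocytes (Mog, log2 0.83, edgeR adjusted p = 0.0309), 0 in neurons and 0 elsewhere. Leaving out single mice gave 0 to 1 calls in oligodendrocytes and 0 to 2 elsewhere for formalin over rotarod, and 0 in each other contrast and set. Mog in oligodendrocytes for formalin over rotarod ranged over 0.67 to 0.89 on the log2 scale in these leave-outs. The causes were not tested.

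Signs turned only for values that were never called. For formalin over control in oligodendrocytes they were Mbp at 0.051, Mobp at -0.016 and Cnp at -0.055 without the cx controls and Mobp at -0.015 with no filter. In neurons they were Cnp at -0.062 with no filter and -0.060 without the cx controls, Mal at 0.054 with DESeq2 and 0.029 with total UMIs, and, for formalin over rotarod, Mobp at 0.063 after thinning. Over leave-outs the log2 fold change spanned 0 as follows. For formalin over control in oligodendrocytes the ranges were -0.12 to 0.0018 for Mbp, -0.014 to 0.18 for Mobp and -0.065 to 0.28 for Cnp, and in neurons -0.13 to 0.074 for Cnp and -0.24 to 0.18 for Mal. For rotarod over control they were -0.17 to 0.041 for Mobp and -0.20 to 0.087 for Mal in oligodendrocytes, and -0.25 to 0.36 for Mbp and -0.46 to 0.099 for Mobp in neurons. For formalin over rotarod Mobp in neurons ranged over -0.46 to 0.074. Without TMM factors the median of all genes in neurons shifted by 0.12 for formalin over rotarod. The ME and VM families had too few rotarod mice for a fit, and at a minimum of 20 nuclei precursors, microglia, VC and MI had under 2 mice in at least 1 group.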
